A study of Mus musculus with 64 samples.

Results

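Aquaporins are the membrane channels that carry water across cell membranes, and 6 of them were described in whole mouse colon: Aqp8, Aqp4, Aqp1, Aqp11, Aqp7 and Aqp3. They were taken by gene name, and all 6 were found among the 35534 genes of each of the 2 deposited tables. The tables hold RNA sequencing of colon from Swiss Webster mice, an outbred stock, that had a microbiota free of specific pathogens (SPF) or were reared germ-free (GF). Every mouse received intraperitoneal injections, either 2.5 mg of vancomycin in 100 µl of PBS or PBS alone, given 2 times a day for 3 days and once on day 4, at an age of 8 to 12 weeks. Tissue was taken at zeitgeber times ZT5, ZT11, ZT17 and ZT23, counted in hours after lights on in a 12 h light cycle. There were 16 groups of 4 libraries: SPF vancomycin, SPF PBS, GF vancomycin and GF PBS at each time, 64 libraries in all. No group was left without injections, so the PBS groups share the handling and the injections with the vancomycin groups. Nothing in the labels says that each library is a separate animal, so the tests measure only how these libraries vary, part of which may be technical.

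The members differ in where they sit and what they pass. Aqp8 and Aqp4 are water channels of the absorptive surface epithelium of the colon, Aqp8 in the apical part of the cells and Aqp4 in their basolateral membrane. Aqp1 is the water channel of capillary endothelium and of red cells. Aqp11 is an intracellular aquaporin of the endoplasmic reticulum. Aqp7 and Aqp3 are aquaglyceroporins, which also pass glycerol, Aqp7 best known from adipocytes and Aqp3 from basolateral membranes of epithelia. The colon takes up water behind absorbed sodium, and its proximal and distal ends differ in transporters and hormone control. The Hox genes of the posterior body mark how far along the gut a piece of tissue lies.

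The library totals were 10044032 to 13615804 estimated counts in SPF and 10513966 to 15736087 in GF. Levels are given as CPM, estimated counts scaled to a common library size with TMM factors, within each table. A library's place along the colon was scored as the mean log2 CPM of 8 distal Hox genes minus that of 10 proximal ones. A higher score was read as a more distal profile. Scores ran from 1.17 to 2.98 in SPF vancomycin libraries and from 0.656 to 3.00 in SPF PBS libraries. They ran from -3.27 to 3.09 in GF vancomycin libraries and from -1.67 to 2.597 in GF PBS libraries. A score below 0 was found in 6 of 16 GF vancomycin and 6 of 16 GF PBS libraries, and in none of the 32 SPF libraries. The largest gap between neighbouring GF scores with 4 or more libraries on either side was 0.759, so the GF libraries were treated as 1 continuous set, and values on either side of 0 are given as well. Hoxb13, 1 of the 8 distal Hox genes in the score, had 65.3 to 463 CPM in the 20 GF libraries above 0. It had 0.156 to 19.4 CPM in the 12 below 0, with no overlap, but it helps to set the score that splits them. The genes of the score did not all follow it in GF. Of the distal ones, Hoxb13, Hoxd12 and Hoxd13 changed by 2.01, 1.75 and 2.00 log2 units per unit of score. Hoxa11, Hoxa13, Hoxd11, Hoxd10 and Hoxd9 had 0.18, 0.17, -0.08, -0.22 and -0.71. Of the proximal ones, Hoxb3 to Hoxb8 had values between -1.52 and -0.49. Hoxa3, Hoxa4, Hoxa5 and Hoxc4 had -0.05, -0.04, 0.02 and -0.18. The lowest scores were those of GF vancomycin ZT5 replicate 3 at -3.27 and GF vancomycin ZT23 replicate 2 at -2.19. Markers of surface colonocytes were high in every library, with summed levels of 7345 to 25501 CPM, and those of stratified squamous epithelium summed to 1.41 to 27.5 CPM, so the labelled tissue was seen and the skin-like lining of the anal end was near 0. Summed Y-linked genes were 209.5 to 280.4 CPM in SPF libraries but 17.1 to 301 CPM in GF libraries. Within single GF groups they ran from 17.1 to 269 CPM (vancomycin ZT23) and from 53.8 to 301 CPM (PBS ZT17). Their GF median was 73.7 CPM after vancomycin and 227 CPM after PBS. It was 226 CPM above a score of 0 and 50.7 CPM below it. Genes of the Y chromosome mark male tissue, so single GF groups appear mixed in sex. Comparisons of treatment or position in GF thus also compare libraries with unlike Y-linked levels, and probably of unlike sex. These cannot be fully told apart.

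**Figure D1:**
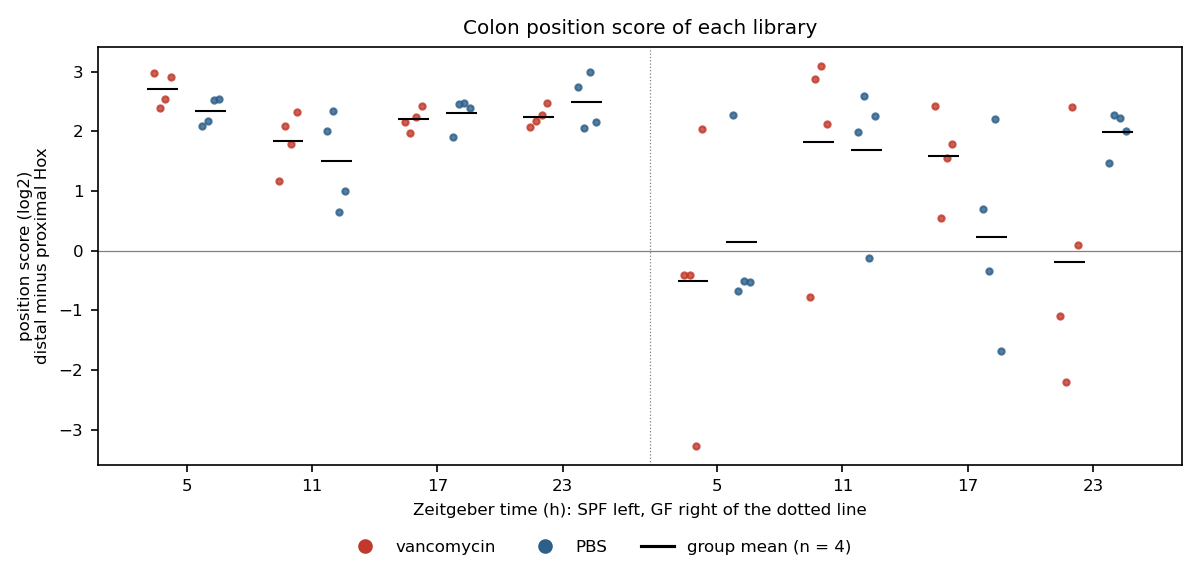
Colon position score (log2, distal minus proximal Hox genes) of each of the 64 libraries by zeitgeber time in hours, with SPF to the left and GF to the right of the dotted line, vancomycin in red and PBS in blue, and black bars for group means of 4 libraries. All SPF libraries lie above 0, while 12 of the 32 GF libraries lie below it.

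Aqp8 had the highest level of the 6 and Aqp3 the lowest. Compared between genes, levels were divided by the length of the gene's merged exons. Per kilobase, the median was 375 CPM for Aqp8 in SPF libraries, 47.7 for Aqp4, 21.3 for Aqp1, 1.84 for Aqp7, 1.76 for Aqp11 and 0.283 for Aqp3. In GF libraries the medians per kilobase were 149.5 CPM for Aqp8, 36.6 for Aqp4, 19.5 for Aqp1, 2.07 for Aqp11, 1.93 for Aqp7 and 0.119 for Aqp3. In both tables Aqp7 and Aqp11 were neighbours whose ranges overlapped, 1.10 to 4.51 and 0.479 to 2.80 CPM per kilobase in SPF. The ranges of Aqp8, 203 to 818 CPM per kilobase, and of Aqp4, 22.98 to 154, did not overlap in SPF, whereas in GF Aqp8 ranged from 0.809 to 482 and crossed those of the other 5 members. Because the tables were normalized separately, levels in SPF and GF are set side by side and not tested. In bulk tissue, fewer cells of a type and less RNA per cell cannot be told apart.

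**Figure D2:**
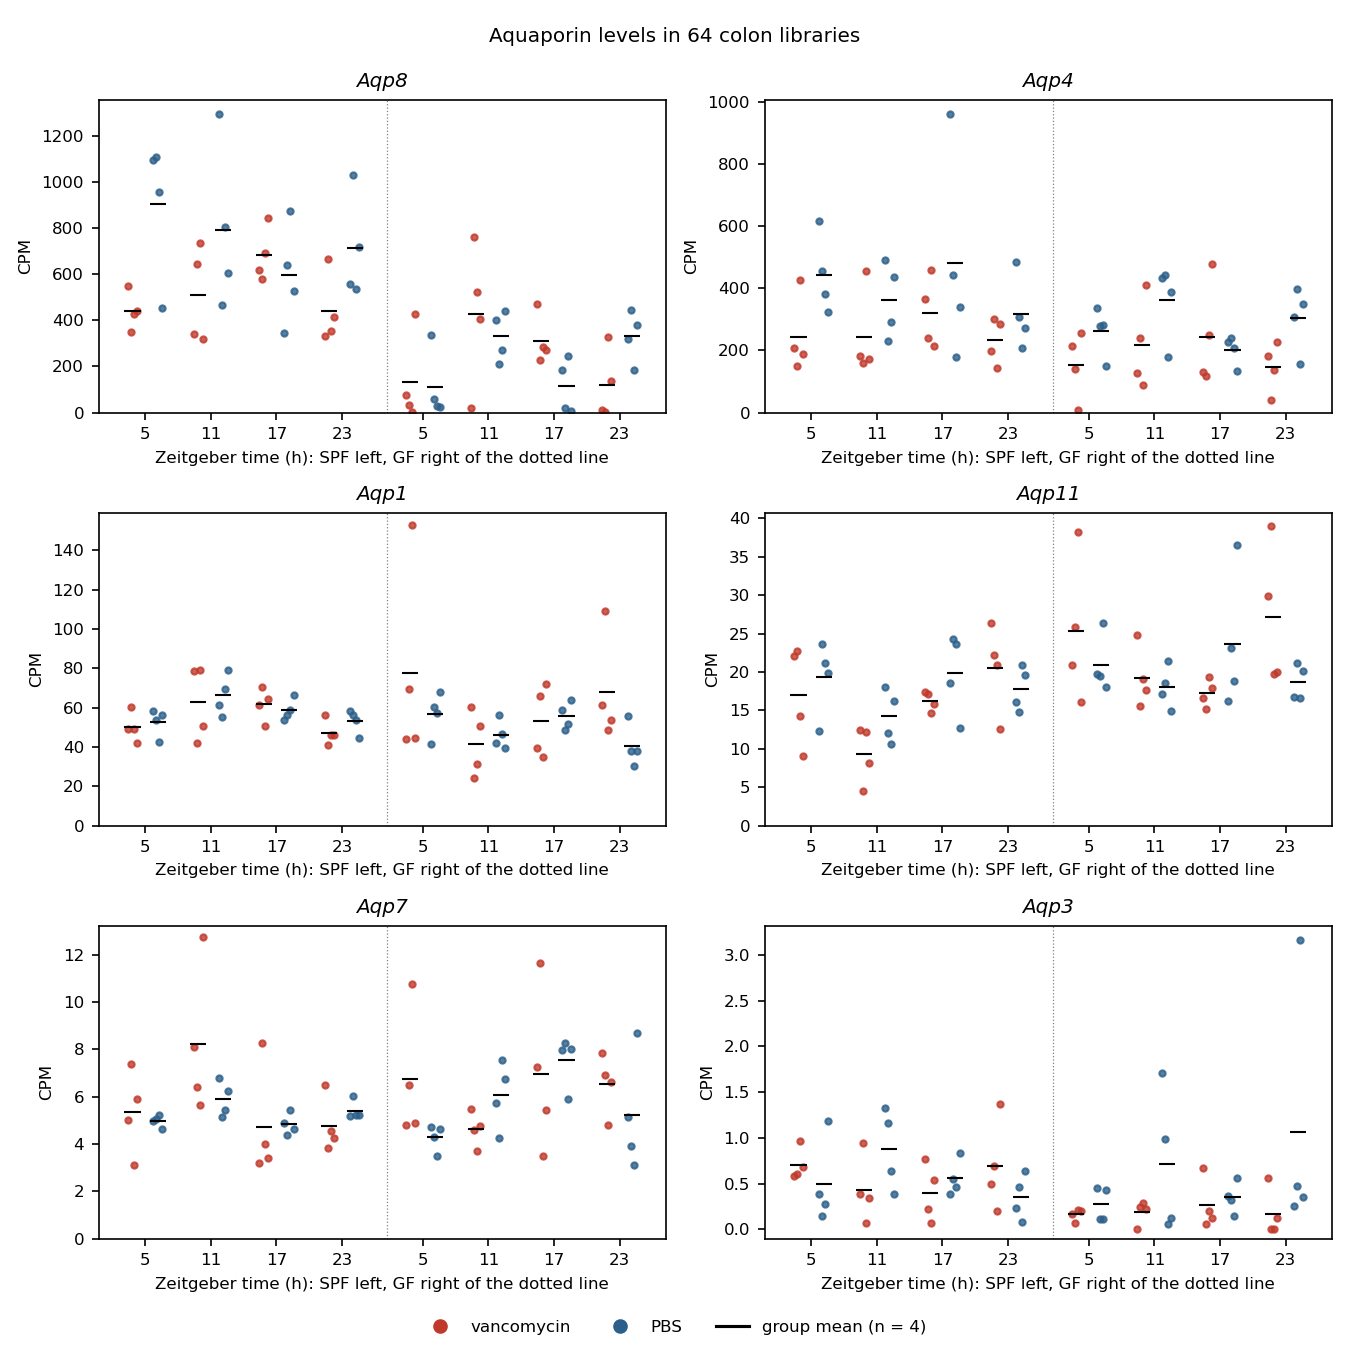
CPM of each aquaporin (linear axes) in each of the 64 libraries by zeitgeber time in hours, SPF to the left and GF to the right of the dotted line, vancomycin in red left of PBS in blue, with black bars for group means of 4 libraries. Aqp8 is lower in SPF vancomycin than in SPF PBS at ZT5, with means of 442 and 903 CPM, and in GF it runs from 1.28 to 762 CPM.

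In the GF libraries Aqp8 was higher the more distal the library, whereas Aqp1, Aqp11 and Aqp7 were lower, and Aqp4 did not pass the test. In edgeR's quasi-likelihood test with group and position score in 1 model, 4 of the 5 members tested in GF passed an adjusted p of 0.05 (Benjamini-Hochberg over all 16951 genes tested), beside 20.6% of all tested genes. Aqp8 was the 1 higher in more distal libraries, beside 11.1% of genes, and the 3 others were lower, beside 9.5%. At an unadjusted p under 0.05 there were 5 of 5, beside 33.7% of genes. Aqp3 was below the count filter in GF and was not tested there.

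Aqp8 showed it in single libraries. In the 20 GF libraries with a score above 0 it had 137 to 762 CPM, with a median of 333, and in the 12 below 0 it had 1.28 to 272 CPM, with a median of 23.6. All but the highest of the 12 lay below the 20. The lowest values, 1.28 and 1.35 CPM, were those of the most proximal-like libraries, GF vancomycin ZT23 replicate 2 and GF vancomycin ZT5 replicate 3. The fitted slope was 1.22 log2 units per unit of score (SE 0.15, adjusted p = 1.25e-06), a 2.32-fold higher level per unit. Without those 2 libraries it was 1.05 and still passed the test. The correlation of log2 CPM with the score over the 32 GF libraries was r = 0.92 and rho = 0.87 (100000 permutations, two-sided p = 1e-05 for each, the smallest they can give, adjusted p = 3.67e-05 for r over 11 relations). It was 0.90 without the 2 farthest libraries, 0.70 within the 20 above 0 and 0.89 within the 12 below 0. The GF correlations, here and for the other members, pool all groups and so mix position with treatment and time of day. The slopes are fitted within groups.

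In SPF libraries, which all scored above 0, Aqp8 had a slope of 0.02 (SE 0.25, adjusted p = 0.978), and a correlation of -0.11 with the score (permutation p = 0.54). The slope of SPF minus that of GF was -1.19 (SE 0.42, adjusted p = 0.851 over 16604 genes by edgeR), and 0% of genes passed that test, which had Aqp8 as the only member at an unadjusted p under 0.05, beside 5.05% of genes. The 20 GF libraries above 0, with scores of 0.094 to 3.09, cover the range of the SPF scores. In a fit chosen after seeing the data, with only these GF libraries, the slope of Aqp8 in GF was 0.41 (SE 0.18), and the SPF slope minus the GF slope was -0.39 (SE 0.31, adjusted p = 1 by edgeR), with 0 members at an unadjusted p under 0.05, beside 4.72% of genes.

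Aqp11, the aquaporin of the endoplasmic reticulum, ran against Aqp8. It had 14.97 to 21.1 CPM in the 20 GF libraries above 0, with a median of 17.8, and 18 to 39.0 CPM in the 12 below 0, with a median of 25.4. The 2 sides overlapped between 18 and 21.1 CPM. The 3 highest values, 39.0, 38.3 and 36.6 CPM, belonged to the 3 libraries with the lowest scores, GF vancomycin ZT23 replicate 2, GF vancomycin ZT5 replicate 3 and GF PBS ZT17 replicate 4. The slope was -0.18 (SE 0.03, adjusted p = 2.16e-04) and -0.15 without the 2 lowest. The correlation was r = -0.80 and rho = -0.63 (permutation p = 1e-05 and 1.6e-04), -0.69 without the 2 farthest libraries, -0.83 within the libraries below 0, and 0.09 within those above 0 (adjusted p = 0.901 over 5 relations). Over the 32 GF libraries the log2 levels of Aqp8 and Aqp11 had r = -0.89, which describes libraries that share this spread of positions.

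Aqp1, the endothelial channel, was also lower in more distal GF libraries. It had 24.3 to 71.8 CPM in the 20 libraries above 0, with a median of 43.3, and 44.1 to 153 CPM in the 12 below 0, with a median of 60.8. The 2 sides overlapped widely, and only the 2 most proximal-like libraries, at 153 and 109 CPM, lay above all others. The slope was -0.23 (SE 0.04, adjusted p = 5.68e-04) and -0.15 without those 2. The correlation was r = -0.78 and rho = -0.74 (permutation p = 1e-05 and 3e-05), and -0.65 without the 2 farthest. It held on both sides, with r = -0.91 below 0 and -0.59 above 0. In SPF the slope of Aqp1 was -0.28 (SE 0.11, adjusted p = 0.18), with r = -0.58 (permutation p = 5.2e-04, adjusted p = 0.00114) and -0.48 without the 2 farthest libraries. Unlike the slope, which is fitted within groups, r pools all groups and so mixes position with time of day. With the distal Hox genes alone as the score, r in SPF was -0.29 (adjusted p = 0.189). By edgeR 0 of the 10 endothelial markers passed the slope test in GF, with 1 at an unadjusted p under 0.05, where they summed to 67.7 to 232 CPM, and with the endothelial markers as a covariate the GF slope of Aqp1 was -0.21.

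Aqp4 and Aqp7 lay near the threshold. Aqp4 had 89.1 to 478 CPM in the 20 GF libraries above 0, with a median of 253, and 7.39 to 281 CPM in the 12 below 0, with a median of 164. Its 2 lowest values, 7.39 and 39.2 CPM, were again those of the 2 most proximal-like libraries. Its slope was 0.34 (SE 0.13, adjusted p = 0.0568), and 0.16 without those 2 (adjusted p = 0.236). DESeq2 and limma passed it, with adjusted p of 0.00741 and 0.0136. Its correlation was r = 0.61 and rho = 0.36 (permutation p = 1.8e-04 and 0.0423), but 0.31 without the 2 farthest libraries (permutation p = 0.0931), so it rests on those 2. Within the 12 below 0, which hold those 2, r was 0.91 (permutation p = 0.00136, adjusted p = 0.0017 over 5 relations). Within the 20 above 0 it was 0.007 (permutation p = 0.977). The slope of Aqp4 passed in 5 fits that each left out 1 library, GF vancomycin ZT5 replicate 1, vancomycin ZT11 replicate 3, vancomycin ZT17 replicate 1 or vancomycin ZT23 replicate 1 or 3, with adjusted p between 0.0368 and 0.043.

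Aqp7, the adipocyte aquaglyceroporin, had 3.11 to 11.7 CPM in the 20 GF libraries above 0, with a median of 5.01, and 3.51 to 10.8 CPM in the 12 below 0, with a median of 6.71. The 2 sides overlapped over nearly their whole range. Its slope was -0.15 (SE 0.05, adjusted p = 0.0447), and its correlation r = -0.46 and rho = -0.40 (permutation p = 0.00803 and 0.0226). It was -0.34 (permutation p = 0.0669) without the 2 farthest and -0.57 within the 12 below 0 (permutation p = 0.0523). Within the 20 above 0, which hold neither of those 2, it was -0.55 (permutation p = 0.0117, adjusted p = 0.0195 over 5 relations). The slope did not pass in 12 of 32 fits that each left out 1 library, GF vancomycin ZT5 replicate 3 or 4, vancomycin ZT11 replicate 1, vancomycin ZT17 replicate 2 or 4, vancomycin ZT23 replicate 1 or 3, PBS ZT11 replicate 2 or 3, PBS ZT17 replicate 2 or 3 or PBS ZT23 replicate 1, with adjusted p between 0.0506 and 0.109. Adipose and mesothelium markers moved with position as well. Of the 10 on the list 4 were lower in more distal GF libraries, beside 9.5% of genes. The 10 summed to 22.3 to 940 CPM, and with them as a covariate the Aqp7 slope was -0.10 (adjusted p = 0.319).

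**Figure D3:**
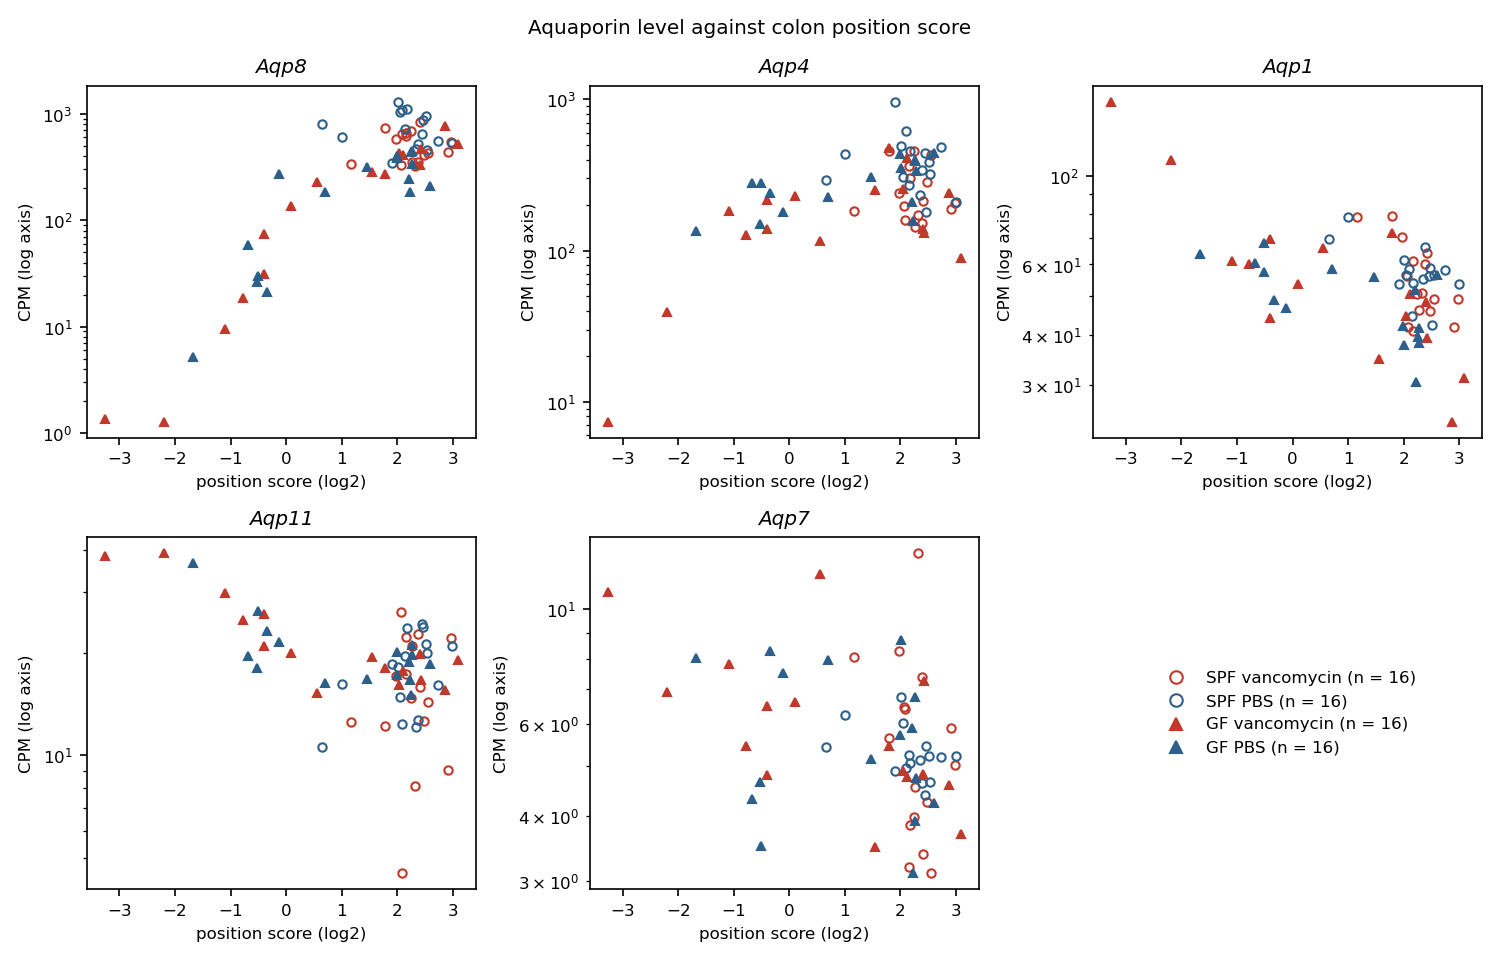
CPM (log axis) of the 5 members tested in both tables against the colon position score (log2) of the library, with open circles for SPF, filled triangles for GF, red for vancomycin and blue for PBS (16 libraries each). In GF, Aqp8 climbs with the score from 1.28 and 1.35 CPM at the most proximal-like libraries, and Aqp1 and Aqp11 have their highest values there.

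**Figure D4:**
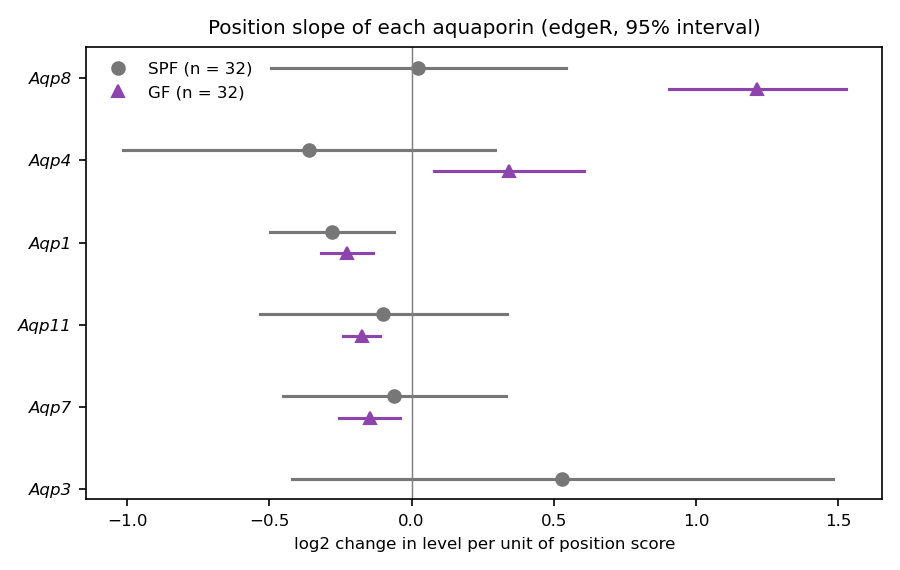
Fitted log2 change of each aquaporin per unit of position score, with 95% intervals, in SPF (grey circles) and GF (purple triangles), 32 libraries each. The GF interval of Aqp8 runs from 0.90 to 1.53, those of Aqp1 and Aqp11 lie below 0, and Aqp3 has no GF value because it was below the filter.

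In SPF 0 of 6 members passed edgeR's slope test, beside 2.23% of genes, with 1 member, Aqp1, at an unadjusted p under 0.05, beside 14.8% of genes, and 0 members called by DESeq2 or limma. The correlation of Aqp1 given above did pass, but it pools the groups and mixes position with time of day. At ZT11 the SPF scores went down to 0.656, and Aqp1 had its highest group means, 62.7 CPM after vancomycin and 66.2 CPM after PBS. The correlation of Aqp7, pooled as well, passed by rank alone, with rho = -0.39 (permutation p = 0.0269, adjusted p = 0.0493 over 11 relations) and r = -0.26 (permutation p = 0.157). Its rho was -0.35 without the 2 farthest libraries (permutation p = 0.0597). The slopes of Aqp4, Aqp3, Aqp11 and Aqp7 were -0.36, 0.53, -0.10 and -0.06, with SEs of 0.32, 0.46, 0.21 and 0.19.

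Markers of other cell types were called with position in GF to different extents, beside 20.6% of all genes, 11.1% higher and 9.5% lower. Of 7 B cell and follicle markers 6 were higher in more distal libraries. Of 6 goblet cell markers 4 were higher and 2 lower, and of 10 surface colonocyte markers 1 was higher and 4 lower. Lower ones numbered 4 of 10 for enteric neurons and glia and 3 of 6 tested for the small intestine. Of 8 smooth muscle markers 2 were lower. None of 5 erythroid, 3 tested squamous or 4 Y-linked genes passed the test by edgeR, with 0, 0 and 2 at an unadjusted p under 0.05. Small intestine markers summed to 8.08 to 161 CPM in the libraries above 0 and to 133 to 545 CPM in those below 0. Summed surface colonocyte markers spanned 9553 to 17810 CPM in the libraries above 0 and 12841 to 25501 CPM in those below 0. With the surface colonocyte markers as a covariate the Aqp8 slope was 1.36. Summed Y-linked genes had a median of 226 CPM in the libraries above 0 and of 50.7 CPM in those below 0. With them as a covariate the slope of Aqp8 was 1.14, and Aqp1 and Aqp11 passed the test with -0.23 and -0.16, whereas Aqp7 did not, with -0.11 (adjusted p = 0.182). Beyond the covariates given here, the part of other cell types in the slopes was not tested.

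The promoters of the 3 members with the smallest adjusted p for the GF slope are shown because the score is built from Hox genes, whose proteins bind short AT-rich motifs near their targets. RefSeq windows of 300 bases, from 250 before to 50 after the start in RefSeq, were found for 5 of the 6 members on GRCm38.p6. They were searched on both strands for CAATAAA, which reads TTTATTG on the other strand, a core that HOXB13 and the CDX factors bind. It was chosen after the sequences had been read. The capitals mark the match.
Aqp8, chr7:123462044-123462343, plus strand: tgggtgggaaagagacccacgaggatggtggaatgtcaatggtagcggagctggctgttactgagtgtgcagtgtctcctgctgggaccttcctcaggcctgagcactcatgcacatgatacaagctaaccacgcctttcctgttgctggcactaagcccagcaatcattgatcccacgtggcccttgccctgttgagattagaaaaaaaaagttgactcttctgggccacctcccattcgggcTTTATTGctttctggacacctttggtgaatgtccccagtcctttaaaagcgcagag
Aqp1, chr6:55336049-55336348, plus strand: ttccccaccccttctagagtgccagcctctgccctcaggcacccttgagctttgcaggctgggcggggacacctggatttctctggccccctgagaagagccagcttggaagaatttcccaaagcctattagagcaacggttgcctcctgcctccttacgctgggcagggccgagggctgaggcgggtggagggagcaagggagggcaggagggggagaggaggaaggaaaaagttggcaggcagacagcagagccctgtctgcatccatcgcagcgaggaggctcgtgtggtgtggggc
Aqp11, chr7:97738198-97738497, minus strand: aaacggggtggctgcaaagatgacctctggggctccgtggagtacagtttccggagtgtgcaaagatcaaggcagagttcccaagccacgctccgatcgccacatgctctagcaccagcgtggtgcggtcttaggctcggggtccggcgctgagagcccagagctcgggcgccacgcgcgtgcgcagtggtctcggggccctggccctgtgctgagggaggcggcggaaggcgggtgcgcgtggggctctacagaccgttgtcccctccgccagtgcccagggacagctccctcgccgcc
The Aqp8 window held 1 match, whose first base lies 6 bases before the start, and the windows of Aqp1, Aqp11, Aqp3 and Aqp7 held 0. Of all 32851 windows in the table, 4.6% hold the motif. A match is a description of the letters and not a binding site. In the GENCODE annotation of GRCm38, Aqp8 spans chr7:123462291-123468004 and Aqp11 chr7:97724006-97738289, on the same chromosome but far apart. Aqp7, at chr4:41033074-41048139, and Aqp3, at chr4:41092722-41098183, are close to each other on the minus strand, and Aqp1 lies at chr6:55336432-55348555. The Aqp1 window shown ends before this GENCODE start, at 55336348, so by that annotation it holds no base of the gene. The deposited values were made on GRCm39, so these positions serve to place the genes and not the reads.

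Vancomycin was compared with PBS to ask what the antibiotic did with and without a microbiota. In SPF colon both water channels of the surface epithelium had lower mean levels after vancomycin, but 0 of the 6 members passed the test over all times, beside 0.809% of genes. At an unadjusted p under 0.05 there were 2, Aqp8 and Aqp4, beside 16.2% of all genes. DESeq2 called 1 member, Aqp8, and limma 0.

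Aqp8 averaged 519.7 ± 167 CPM in SPF vancomycin libraries and 751 ± 281 CPM in SPF PBS libraries (SD, n = 16 each). At ZT5 it had 549, 351, 427 and 442 CPM after vancomycin, against 1096, 1109.5, 955 and 453 CPM after PBS. At that time 3 of 4 PBS libraries lay above all 4 vancomycin libraries, and the fourth lay among them. At ZT11 it had 340.4, 644, 734 and 321 CPM after vancomycin, against 1294, 466, 806 and 606 CPM after PBS. At ZT17 the order was not that of ZT5, with 620.4, 579.8, 692 and 844 CPM after vancomycin, against 346, 641, 876 and 526 CPM after PBS. At ZT23 it had 333, 667, 356 and 415 CPM after vancomycin, against 559, 1033, 538 and 719.6 CPM after PBS. The groups overlapped at each of the 4 times. Over all times the log2 fold change was -0.54 (95% interval -0.88 to -0.20, adjusted p = 0.111 by edgeR), and DESeq2 gave an adjusted p of 0.0426. Surface colonocyte markers summed to 7975 to 14443 CPM after vancomycin (median 11616) and to 7345 to 16842 CPM after PBS (median 12580.0), and 0 of the 10 passed the test. With these markers as a covariate the log2 fold change of Aqp8 was -0.35 (adjusted p = 0.318).

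Aqp4 averaged 259 ± 111 CPM in SPF vancomycin libraries and 401 ± 190.3 CPM in SPF PBS libraries (SD, n = 16 each). Its lowest, median and highest values were 143, 210.3 and 459 CPM after vancomycin, against 179, 361 and 961 CPM after PBS. The groups overlapped over most of their range, and the 961 CPM of SPF PBS ZT17 replicate 1 stood above all others. The log2 fold change was -0.62 (95% interval -1.06 to -0.18, adjusted p = 0.153), and DESeq2 gave an adjusted p of 0.0694. SPF vancomycin ZT11 replicate 3, at 457 CPM of Aqp4 against 159 to 181 CPM in the other 3 libraries of its group, stood apart. Without it the log2 fold changes were -0.75 for Aqp4 (adjusted p = 0.04) and -0.60 for Aqp8 (adjusted p = 0.0467), and 518 genes in place of 137 passed the test. For Aqp8 the fits that left out 1 library gave -0.61 to -0.46, so this library was not the one that moved it most.

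The other 4 members showed smaller differences in SPF. Aqp11 averaged 15.8 ± 6 CPM after vancomycin and 17.8 ± 4.45 CPM after PBS (log2 fold change -0.22, interval -0.52 to 0.09, adjusted p = 0.489). Aqp1 averaged 55.4 ± 12.5 CPM after vancomycin and 57.7 ± 8.73 CPM after PBS (-0.06, interval -0.24 to 0.11, adjusted p = 0.766). Aqp7 averaged 5.77 ± 2.51 CPM after vancomycin and 5.28 ± 0.623 CPM after PBS (0.09, interval -0.19 to 0.37, adjusted p = 0.795), with a wider spread after vancomycin that came from values up to 12.8 CPM. Aqp3 averaged 0.559 ± 0.350 CPM after vancomycin and 0.572 ± 0.376 CPM after PBS (0.01, interval -0.64 to 0.65, adjusted p = 0.997). For Aqp1 the interval is narrow, while for Aqp3 the depth leaves room for a change in either direction.

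At single times 0 of 6 members passed the test in SPF. Over all genes 0.0827% were called at ZT5, 0% at ZT11, 0.319% at ZT17 and 0% at ZT23, and 0 members were called by DESeq2 or limma. The member with the smallest p was Aqp8 at ZT5 (-1.03, SE 0.34, adjusted p = 0.173) and again at ZT23 (-0.69, SE 0.33, adjusted p = 0.681). At ZT11 it was Aqp11 (-0.60, SE 0.30, adjusted p = 0.51), with 12.5, 4.51, 12.2 and 8.13 CPM after vancomycin, against 18.1, 12.1, 10.6 and 16.2 CPM after PBS. At ZT17 it was Aqp4 (-0.59, SE 0.43, adjusted p = 0.783). Members at an unadjusted p under 0.05 numbered 1 at ZT5, beside 14.2% of genes, 0 at ZT11, beside 9.86%, 0 at ZT17, beside 8.65%, and 1 at ZT23, beside 7.34%. The test of treatment by time called 0 of 6 members in SPF, beside 0.36% of genes, with 0 at an unadjusted p under 0.05, beside 9.79%, 0 called by DESeq2 or limma, and an adjusted p of 0.576 for Aqp8.

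In GF colon 0 of 5 members passed the test of vancomycin over all times, beside 0% of genes, with 0 members at an unadjusted p under 0.05, beside 3.96%, and 0 members called by DESeq2 or limma. Aqp4 averaged 190.5 ± 124 CPM in GF vancomycin libraries and 282 ± 103 CPM in GF PBS libraries (SD, n = 16 each; log2 fold change -0.57, interval -1.22 to 0.08, adjusted p = 1). Its lowest, median and highest values were 7.39, 161 and 478 CPM after vancomycin, against 135, 280.3 and 443 CPM after PBS. The groups overlapped, and the values below 100 CPM, 7.39, 39.2 and 89.1, were all after vancomycin. The values of 7.39 and 39.2 CPM were those of the most proximal-like libraries, with scores of -3.27 and -2.19, so treatment and position were mixed there. The sign of Aqp4 was the one seen in SPF, but no difference between SPF and GF was called: the SPF effect minus the GF effect was -0.05 (SE 0.39, adjusted p = 0.98). Summed Y-linked genes were 17.1 to 269 CPM in GF vancomycin libraries (median 73.7) and 53.8 to 301 CPM in GF PBS libraries (median 227), and with them as a covariate the log2 fold change of Aqp4 in GF was -0.30.

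Aqp8 in GF spread with position within the treatments, so that the comparison was wide. At ZT5 it had 74.9, 31.2, 1.35 and 428 CPM after vancomycin, against 336, 58.8, 29.6 and 26.01 CPM after PBS. At ZT11 it had 18.4, 762, 525 and 407 CPM after vancomycin, against 402, 209, 272 and 439 CPM after PBS. In each of these 4 groups the lowest value came from a library with a score below 0, except in GF PBS at ZT11, where the lowest, 209 CPM, had a score of 2.597. At ZT17 Aqp8 had 469.7, 226, 284 and 271 CPM after vancomycin, against 185, 21.1, 246 and 5.22 CPM after PBS. At ZT23 it had 9.50, 1.28, 329.7 and 137 CPM after vancomycin, against 319, 445, 184 and 381 CPM after PBS. At ZT17 all 4 vancomycin libraries and 2 of the 4 PBS libraries had a score above 0, and at ZT23 2 of the 4 vancomycin libraries and all 4 PBS libraries did. Over all times the log2 fold change of Aqp8 was 0.15 (interval -1.12 to 1.42, adjusted p = 1), and with the position score as a covariate it was -0.13. The interval of Aqp8 in GF holds the SPF estimate of -0.54, and the SPF effect minus the GF effect was -0.68 (SE 0.65, adjusted p = 0.763). In that test of the difference 0 of 5 members passed, beside 0% of the 16604 genes tested in both tables, with 0 at an unadjusted p under 0.05, beside 9.94%.

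The other 3 tested members had small differences in GF. Aqp1 averaged 60.1 ± 31.8 CPM after vancomycin and 49.8 ± 10.8 CPM after PBS (0.24, interval -0.11 to 0.59, adjusted p = 1), and 0.02 without the 2 most proximal-like libraries, both of which received vancomycin. Aqp7 averaged 6.22 ± 2.32 CPM after vancomycin and 5.78 ± 1.86 CPM after PBS (0.12, interval -0.21 to 0.44, adjusted p = 1). Aqp11 averaged 22.3 ± 7.54 CPM after vancomycin and 20.3 ± 5.20 CPM after PBS (0.12, interval -0.14 to 0.37, adjusted p = 1). Aqp3, below the filter, had 0 to 0.673 CPM after vancomycin, at 0 in 3 of 16 libraries, against 0.0544 to 3.16 CPM after PBS.

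At single times in GF 0 of 5 members passed the test, beside 0% of genes at each of the 4 times, and 0 members were called by DESeq2 or limma. The smallest p was that of Aqp7 at ZT5 (0.65, SE 0.32, adjusted p = 1) and at ZT11 (-0.39, SE 0.32, adjusted p = 0.996), of Aqp11 at ZT17 (-0.45, SE 0.25, adjusted p = 0.994), and of Aqp1 at ZT23 (0.75, SE 0.34, adjusted p = 0.384). At ZT23 Aqp1 had 61.2, 109, 48.4 and 53.6 CPM after vancomycin, against 55.8, 38.2, 30.4 and 37.8 CPM after PBS. The highest of them, 109 CPM, was the library with a score of -2.19, and with position as a covariate the log2 fold change of Aqp1 at ZT23 was 0.21. Members at an unadjusted p under 0.05 numbered 0 at ZT5, beside 3.58% of genes, 0 at ZT11, beside 4.91%, 0 at ZT17, beside 4.47%, and 2 at ZT23, Aqp1 and Aqp11, beside 12.1%. The test of treatment by time called 0 of 5, beside 0% of genes, with 0 at an unadjusted p under 0.05, beside 8.29%, and 0 called by DESeq2 or limma.

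**Figure D5:**
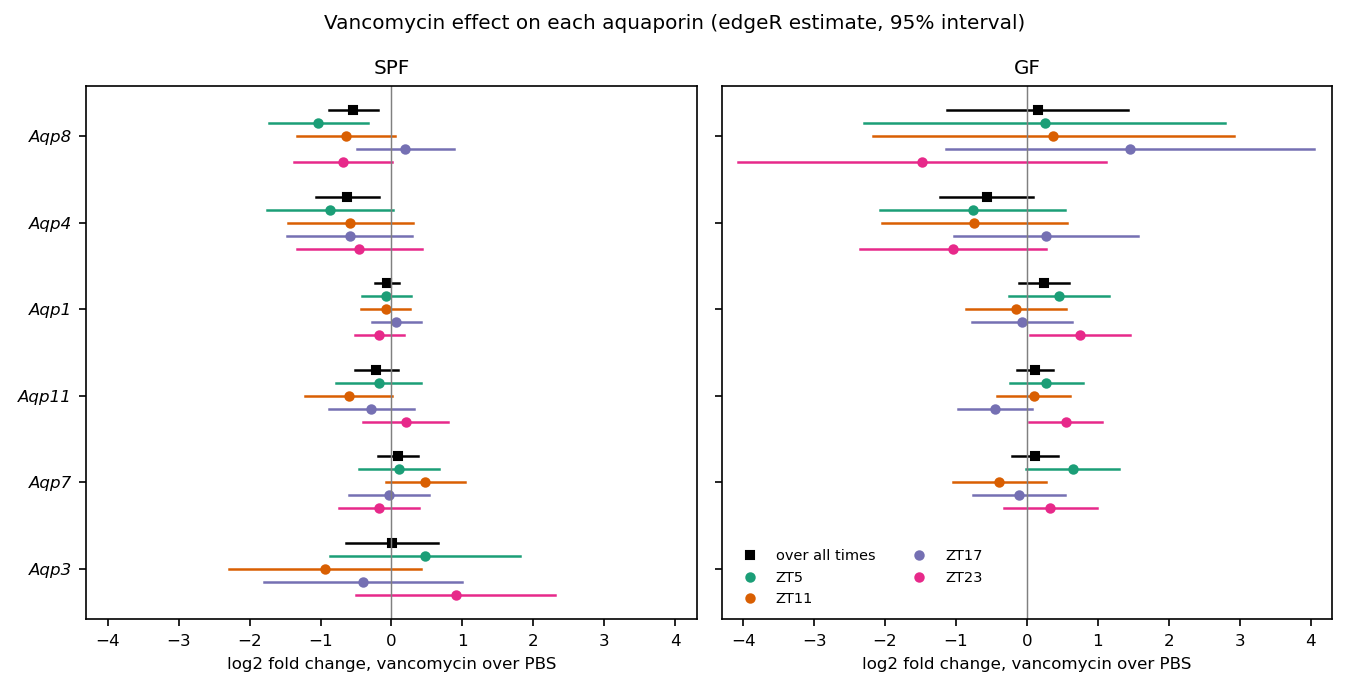
Log2 fold change of vancomycin over PBS for each aquaporin with its 95% interval, over all times (black squares) and at each time (coloured circles), in SPF (left) and GF (right). Over all times the SPF intervals of Aqp8 and Aqp4 lie below 0, from -0.88 to -0.20 and from -1.06 to -0.18, although neither passed the adjusted threshold, and the GF intervals of Aqp8 are the widest drawn.

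Time of day within a treatment was tested over the 4 times. In SPF vancomycin libraries 0 of 6 members passed, beside 8.2% of genes, with 3 at an unadjusted p under 0.05, beside 24.1%, 1 called by DESeq2 and 0 by limma. Aqp11 was closest (adjusted p = 0.0671, DESeq2 adjusted p = 0.0223). After vancomycin it had 22.1, 22.7, 14.3 and 9.03 CPM at ZT5, 12.5, 4.51, 12.2 and 8.13 CPM at ZT11, 17.3, 17.1, 14.7 and 15.8 CPM at ZT17, and 26.4, 22.2, 20.8 and 12.6 CPM at ZT23. Its lowest mean was at ZT11, where every value lay below those of ZT17 and of ZT23. Position and smooth muscle differed at that time as well. In SPF vancomycin libraries the scores were 1.17 to 2.32 at ZT11 and 1.97 to 2.98 at the other 3 times, and summed smooth muscle markers were 9917 to 24291 CPM at ZT11 and 3919 to 12477 CPM at the others. All 8 smooth muscle markers passed the test of time of day. The lowest Aqp11 value, 4.51 CPM, came from a library with a score of 2.08 and 9917 CPM of smooth muscle markers. With the position score as a covariate the adjusted p of Aqp11 was 0.114, and the part of smooth muscle was not tested. Without SPF vancomycin ZT5 replicate 4 or SPF vancomycin ZT23 replicate 4 the adjusted p of Aqp11 was 0.0353 or 0.0394. Aqp7 (adjusted p = 0.113) passed without SPF vancomycin ZT17 replicate 2 (adjusted p = 0.0121), and Aqp1 (adjusted p = 0.197) without SPF vancomycin ZT11 replicate 2 (adjusted p = 0.0493).

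The number of all genes called by time of day depended on the fit: in SPF vancomycin libraries it was 818 genes in place of 1389 once position was a covariate. In SPF PBS libraries 0 of 6 members passed, beside 8.9% of genes (1507, or 411 with position as a covariate), with 0 at an unadjusted p under 0.05, beside 25.7%, and 0 called by DESeq2 or limma. In GF, 0 of 5 passed in vancomycin libraries and 0 of 5 in PBS libraries, beside 0.142% of genes in each, with 1 member, Aqp11, at an unadjusted p under 0.05 in vancomycin libraries, beside 9.51%, and 0 in PBS libraries, beside 14.7%, and 0 called by DESeq2 or limma. The times of day of SPF and GF were not tested against each other.

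Genes around the aquaporins were taken from 4 lists. The lists were chosen with earlier results of these data known. Their shares called after vancomycin and by position therefore describe the lists and do not test them. Of 12 genes of sodium uptake and its control by aldosterone and vasopressin, 3 were higher after vancomycin in SPF and 0 lower: Scnn1b and Scnn1g, which encode the beta and gamma subunits of the epithelial sodium channel, at log2 fold changes of 1.54 and 2.29 (adjusted p = 0.019 and 0.0339), and Hsd11b2, the enzyme that shields the mineralocorticoid receptor from glucocorticoids, at 0.91 (adjusted p = 0.0222). These 3 of 12 stand beside 0.809% of all genes tested. The median log2 fold change of the 12 was 0.38, beside 0.00 over all genes tested. Of 15 ion transport and guanylin genes, 11 osmotic response genes and 10 glycerol handling genes, 0 passed in SPF, with 4, 0 and 3 at an unadjusted p under 0.05, beside 16.2% of genes. In GF 0 of these 48 genes passed over all times.

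With position in GF the lists moved, beside the background of 20.6% of genes, 11.1% higher and 9.5% lower. Of the 12 sodium genes 5 were higher in more distal libraries and 0 lower: Fxyd4, a regulator of the sodium pump, with a slope of 2.50 (adjusted p = 1.14e-09), Scnn1g with 0.53, Scnn1b with 0.34, Hsd11b2 with 0.19 and Scnn1a with 0.15. Of the 15 ion transport genes 3 were higher, Atp12a, the colonic proton-potassium pump, with 1.62, Best2, a bicarbonate-passing channel, with 0.59, and Car4, a membrane carbonic anhydrase, with 0.34. The 6 lower ones were Clca4a with -0.88, Prkg2 with -0.80, Car1 with -0.59, Guca2b with -0.30, Slc9a2 with -0.20 and Gucy2c with -0.11. Of 11 osmotic response genes 3 were higher and 2 lower, with Akr1b3, which makes sorbitol, at 0.30, and the taurine transporter Slc6a6 at -0.27. Of 10 glycerol handling genes 1 was higher, Gk, glycerol kinase, at 0.24, and 8 lower, among them Lpl at -0.51 and Mgll at -0.35. Their slopes ran from -0.66 to 0.24, with a median of -0.25, beside 0.00 over all genes.

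The genes whose log2 level followed each member most closely were ranked by the lower of the 2 Pearson correlations over 32 SPF and 32 GF libraries, among 15413 genes. They were Clic5, Htra4 and Car4 for Aqp8, with 0.71, 0.68 and 0.64. For Aqp4 they were Slc35f2, Evx1 and Utp20, with 0.71, 0.69 and 0.65. For Aqp1 they were Mfap3l, Tpd52l1 and Hoxb5, with 0.71, 0.70 and 0.69, and Hoxb5 is itself a Hox gene. For Aqp7 they were Ntrk2, Ctcfl and Gxylt2, with 0.76, 0.72 and 0.71, and for Aqp11 Ehhadh, Qdpr and Baiap2l2, with 0.62, 0.60 and 0.59. Among the members themselves the highest correlation in SPF was 0.37, between Aqp4 and Aqp8, and in GF their correlation was 0.66. All of these describe libraries that share the spread of position and of cell types.

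The remaining aquaporins of the tables were near 0. The highest value of Aqp9, Aqp12, Mip, Aqp5, Aqp2 or Aqp6 in any of the 64 libraries was 1.45 CPM, of Aqp9, a liver aquaglyceroporin. Only Aqp9 in SPF passed the count filter, and its test over all times gave an adjusted p of 0.512. At ZT11 its log2 fold change was 3.65 (adjusted p = 0.231 by edgeR). That rests on means of 0.62 CPM after vancomycin and 0.03 CPM after PBS, close to 0 counts. Its test of treatment by time gave an adjusted p of 0.378. Aqp2, the vasopressin-regulated channel of the kidney, was at 0 in 31 of 32 SPF and 31 of 32 GF libraries, and Aqp6 at 0 in 31 of 32 SPF and all 32 GF libraries. Vasopressin receptor genes, Avpr1a and Avpr2, were tested in both tables and passed no test of treatment over all times in either.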

How the data were processed

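Whole colon RNA of 64 libraries was selected by poly(A), 1000 ng each, and read as single ends of 75 cycles, per the labels' protocols. Per the submitters' processing notes, the reads went through Trim Galore 0.6.2 with cutadapt 3.5 and Salmon on GRCm39. The deposited values are the authors' estimated counts per gene, in 1 table for SPF and 1 for GF. The deposited names say normalized. No label or header read here states the method of that step or the use of strand. They were rounded to whole numbers. Columns were matched to libraries by name, with 0 columns of other samples.

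Genes with at least 10 counts in at least 4 libraries were tested, 16938 in SPF and 16951 in GF, by edgeR 4.0.16 (R 4.3.3) with TMM scaling and a quasi-likelihood F-test with Benjamini-Hochberg adjustment. Each fit held the 8 groups of 1 table, and the position slope added the position score. Intervals of 95% use 24 residual degrees of freedom. DESeq2 1.42.0 and limma 3.58.1 on log2(CPM + 0.5) were alternatives. No library was identical to another of its table, and any pair within a group differed by a chi-square of at least 16.1 per gene. Pairs from different groups were not compared in this way. The fold changes of the difference between SPF and GF came from 1 fit of both tables, whose separate normalization is not undone by it.

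The members and gene lists were chosen with earlier results of these data known. All 6 members were named, at single times the 1 with the smallest p, and list genes where they passed. Replicate numbers were checked for pairing: same-numbered libraries had a mean correlation of deviations of 0.03 in SPF and -0.03 in GF, so they were not paired. The fit with a replicate block is given in the closing section. The surface colonocyte and Y-linked covariates, the position slopes by distal Hox genes or Hoxb13 alone, the fit without the 2 most proximal-like libraries, the correlations on either side of 0 and the difference between SPF and GF slopes were added after seeing the data.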

Additional observations from a re-analysis of the deposited data

Results flagged for a closer look

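In 96 sets of 4 libraries, 1 for each member and group, 6 held a library far from the other 3 by Dixon's test at its 95% critical value. Chance flags about 1 in 20 such sets. Aqp4 had 457 CPM in SPF vancomycin ZT11 replicate 3, against 159 to 181 CPM in the other 3. Aqp8 had 336 CPM in GF PBS ZT5 replicate 1, against 26.01 to 58.8 CPM in the other 3, and its position score was 2.27 where theirs were below 0. Aqp7 stood apart in 3 sets: it had 8.28 CPM in SPF vancomycin ZT17 replicate 2, against 3.20 to 3.99 CPM, it had 6.04 CPM in SPF PBS ZT23 replicate 2, against 5.19 to 5.23 CPM, and it had 5.91 CPM in GF PBS ZT17 replicate 3, against 7.97 to 8.29 CPM. Aqp3 had 3.16 CPM in GF PBS ZT23 replicate 3, against 0.252 to 0.473 CPM.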

How the results depend on the processing

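Counts of called members kept within 1.5 times of those reported in all but 6 alternatives and 5 fits that left out 1 library. DESeq2 called 1 member in SPF over all times and 1 by time of day after vancomycin. The correlation with position called 0 members in SPF with the distal Hox genes alone. In GF it called 3 of 5 with the distal Hox genes alone, 3 without the 2 farthest libraries and 3 above a score of 0. Leaving out 1 library gave 0 to 2 called members over all times in SPF, 0 to 1 by time of day after vancomycin in SPF, and 3 to 5 position slopes in GF, where Aqp7 was lost in 12 of 32 fits and Aqp4 was gained in 5. The Aqp8 slope stayed between 1.13 and 1.36 in those fits. The replicate block called 0 members over all times in SPF, with log2 fold changes of -0.53 for Aqp8 and -0.60 for Aqp4, and 5 position slopes in GF, Aqp4 among them with an adjusted p of 0.0354, and it changed no other member's call; 14 of 32 SPF and 5 of 32 GF libraries correlated best with their own number.

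Over all genes, the 137 called in SPF became 493 by DESeq2, 80 with no count filter, 70 with surface colonocyte markers, 55 with Y-linked genes as a covariate, and 47 to 518 when 1 library was left out. At ZT5, ZT11, ZT17 and ZT23 in SPF, 14, 0, 54 and 0 genes became 1 to 88, 0 to 109, 21 to 67 and 0 to 2 when 1 library was left out, and 240, 102, 147 and 42 by DESeq2, which called 205 in place of 61 for treatment by time. By time of day in SPF, 1389 genes after vancomycin became 818 with position, 891 with Y-linked genes, 2254 by DESeq2 and 798 to 1717 when 1 library was left out, and 1507 after PBS became 411, 1089, 2639 and 671 to 1942. In GF the 24 genes called in each treatment became 179 after vancomycin and 403 after PBS by DESeq2. GF stayed at 0 over all times except for 5 by DESeq2, which called 9, 8, 13 and 55 at ZT5, ZT11, ZT17 and ZT23. Position slopes over all genes in SPF went between 84 and 733 beside 377, and in GF between 2076 and 5523 beside 3499.

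Several estimates near 0 changed sign, and the cause was not tested. In SPF over all times Aqp3 was -0.0084 by limma, -0.032 with position, -0.022 with adipose markers and -0.12 with surface colonocyte markers, and Aqp7 was -0.011 with Y-linked genes. In GF over all times Aqp8 was -0.49 by limma, -0.13 with position and -0.077 with surface colonocyte markers. Aqp7 in GF was -0.042 with adipose markers and -0.10 with Y-linked genes, and Aqp11 was -0.058 with Y-linked genes and -0.0080 without the 2 most proximal-like libraries. Position slopes in SPF that changed sign were those of Aqp7, at 0.030 with endothelial markers, 0.080 with Y-linked genes, 0.11 by distal Hox genes alone and 0.029 by Hoxb13 alone, of Aqp8, at -0.025 by limma, -0.20 with endothelial markers and -0.019 with Y-linked genes, and of Aqp11, at 0.029 by distal Hox genes alone and 0.078 by Hoxb13 alone. The difference between SPF and GF effects for Aqp7 was 0.053 with position, and that of the position slopes for Aqp11, 0.077 with all GF libraries, was -0.16 with those above 0 alone. With the distal Hox genes alone r in SPF was -0.10 for Aqp3 and 0.0085 for Aqp8, and above a score of 0 r in GF was 0.086 for Aqp11. When 1 library was left out, signs changed within ranges of -0.15 to 0.23 for Aqp3 and -0.011 to 0.14 for Aqp7 in SPF over all times, -0.33 to 0.54 for Aqp8 in GF over all times, and -0.22 to 0.016 for Aqp7, -0.20 to 0.22 for Aqp8 and -0.25 to 0.00066 for Aqp11 in SPF position slopes. The depth limits Aqp3, which stayed below 3.2 CPM in all libraries.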
